A study of Saccharomyces cerevisiae with 8 samples.

Results

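HUG1 and 9 further genes of the DNA damage response were followed across 8 RNA-seq libraries of the budding yeast Saccharomyces cerevisiae in which the centromeric histone H3 variant Cse4 was overexpressed. The 10 genes, HUG1, SML1, RNR2, RNR3, RNR4, DUN1, RFX1, RAD54, DDI2 and DDI3, were taken by name from a table of 7126 features and were chosen with their values in these libraries already known. Their levels and changes are therefore given as descriptions, with no p-value printed for any of them. Where genes past a threshold are named and counted, the share over all features stands beside the count, and nothing is read from either.

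The groups were wild type (WT, strain GH69), a cac2 mutant (GH182), a psh1 mutant (GH72) and a psh1 cac2 mutant (GH194), with 2 libraries each. PSH1 encodes a ubiquitin ligase that targets Cse4 for degradation, and CAC2 codes for part of CAF-1, a histone chaperone. Every culture, WT included, was brought to an OD600 of 0.1 from raffinose medium and, after 2 h at 30 °C, received 4% galactose, which switched on Cse4 overexpression for 10 h. Each genotype is 1 strain, the nature of the mutations is not given in the labels, and no culture without galactose is analysed here, so the effect of Cse4 itself cannot be told apart from what all groups share.

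When replication stalls or DNA breaks, the kinases Mec1 and Rad53 activate the kinase Dun1. Dun1 raises the supply of deoxynucleotides: it inactivates Rfx1 (also called Crt1), a repressor that binds DNA elements called X-boxes and recruits Tup1 and Cyc8, and it marks the inhibitor Sml1 for degradation. Ribonucleotide reductase, the enzyme that makes deoxynucleotides, consists of a large subunit (Rnr1, or the damage-inducible Rnr3) and a small subunit of Rnr2 and Rnr4. HUG1, RNR2, RNR3, RNR4 and RFX1 itself are textbook targets of Rfx1, and transcripts of HUG1 and RNR3 are widely used reporters of the pathway in yeast.

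The upstream sequences of the Rfx1 targets are shown with their matches to the X-box, the element that Rfx1 binds. Whether Rfx1 binds at these matches was not tested. The palindrome GTTGCCATGGCAAC, a form of the X-box that reads the same on both strands, was searched with up to 3 mismatches in the 600 bases before the start codon. A match was present upstream of 5 of the 10 genes. It occurred in 126 of 5999 upstream regions of nuclear protein-coding genes in all, or 2.10%. No region held the exact palindrome, and 26 regions, or 0.433%, held it with at most 2 mismatches, RNR2 and RNR3 among them. The sequences below come from the R64 genome (sacCer3) and run 5′ to 3′ on the coding strand, with matches in capitals.
HUG1, chrXIII:158510-158759, plus strand, bases -250 to -1 before the start codon: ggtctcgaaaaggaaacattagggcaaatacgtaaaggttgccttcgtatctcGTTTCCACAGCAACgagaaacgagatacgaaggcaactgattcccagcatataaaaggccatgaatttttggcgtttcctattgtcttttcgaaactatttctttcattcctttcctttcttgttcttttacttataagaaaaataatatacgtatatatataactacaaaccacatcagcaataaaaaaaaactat
RNR3, chrIX:240949-241108, minus strand, bases -400 to -241: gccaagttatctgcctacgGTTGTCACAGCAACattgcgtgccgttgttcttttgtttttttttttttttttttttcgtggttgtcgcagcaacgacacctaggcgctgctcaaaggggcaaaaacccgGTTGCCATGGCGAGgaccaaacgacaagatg
RNR2, chrX:391944-392003, plus strand, bases -460 to -401: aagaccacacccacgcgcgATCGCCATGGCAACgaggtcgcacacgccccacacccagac
RNR4, chrVII:856662-856721, minus strand, bases -420 to -361: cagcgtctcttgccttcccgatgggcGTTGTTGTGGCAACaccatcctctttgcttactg
RFX1, chrXII:510243-510302, minus strand, bases -70 to -11: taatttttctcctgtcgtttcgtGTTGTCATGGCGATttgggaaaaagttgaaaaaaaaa
Counted back from the start codon, the match of HUG1 began at base -197 and had 3 mismatches. RNR3 held a pair of matches, with 3 mismatches at base -381 and 2 mismatches at base -271. RNR2 had its match at base -441 with 2 mismatches, RNR4 at -394 with 3, and RFX1 at -47 with 3. SML1, DUN1, RAD54, DDI2 and DDI3 had no match in this window, which says only that these letters are not in it.

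**Figure D1:**
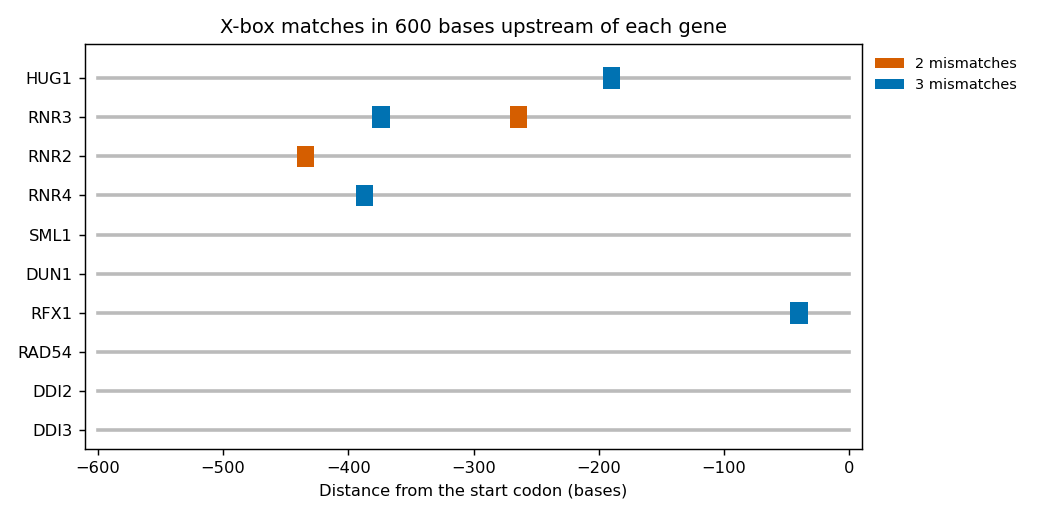
Position of each X-box match (coloured boxes, by number of mismatches) in the 600 bases before the start codon (grey line), with distance from the start codon in bases on the horizontal axis. Of the 10 genes, 5 held a match, beginning between bases -441 and -47, and RNR3 was the gene with a pair of them.

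The libraries held 28177849 to 32057595 reads in features of known length, recovered from the deposited values, which are reads scaled by feature length and library size (RPKM). PSH1 had 0 to 2 reads in the psh1 and psh1 cac2 libraries and 932 to 1128 in the others. CAC2 had 1 to 7 reads in the cac2 and psh1 cac2 libraries and 837 to 1155 in the others. CSE4 stood at 14586 to 16625 RPKM in WT and 17956 to 19968 in cac2, at 9616 to 10127 in psh1, and at 22798 to 23546 in psh1 cac2, so the level of the overexpressed transcript also differed between the genotypes. Its part in the differences described here was not tested. In libraries from whole cultures, more transcript per cell and more cells holding the transcript cannot be told apart.

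The 10 genes spanned a wide range of abundance on the RPKM scale, which allows levels to be compared between genes. Averaged over the 8 libraries, RNR2 (214.5 RPKM), RNR4 (203.3) and SML1 (160.3) led, and they stood above 92.4%, 91.9% and 89.7% of all features. RAD54 (25.6), DUN1 (19.0) and RNR3 (11.2) followed. HUG1 (8.22), RFX1 (7.59), DDI3 (4.58) and DDI2 (4.44) were the lowest, above 20.8%, 20.3%, 17.7% and 17.5% of features. Library ranges of RNR2, RNR4 and SML1 overlapped, as did those of HUG1 with RNR3, RFX1, DDI2 and DDI3, and those of DDI2 with DDI3. The order also depended on genotype: in cac2 the mean of HUG1 (5.06) was below those of DDI3 (5.59) and DDI2 (5.34). RAD54, DUN1 and RNR3 were separated from each other in all 8 libraries. In WT both HUG1 libraries lay below both RFX1 libraries, whereas in psh1 cac2 both lay above. In R64 each gene is a single coding exon. RNR2 lies at 392404 to 393603 on chromosome X (plus strand), RNR3 at 238099 to 240708 on IX (minus) and RNR4 at 855264 to 856301 on VII (minus). DUN1 lies at 280307 to 281848 on IV, RFX1 at 507797 to 510232 on XII and RAD54 at 193707 to 196403 on VII, all on the minus strand. DDI2 (YFL061W) lies at 9545 to 10222 on VI and DDI3 (YNL335W) at 11452 to 12129 on XIV, both on the plus strand.

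HUG1 (YML058W-A) encodes a small protein that inhibits ribonucleotide reductase after DNA damage. It had 5.55 and 5.35 RPKM in WT, 8.03 and 10.5 in psh1, 5.06 and 5.06 in cac2, and 14.4 and 11.8 in the psh1 cac2 mutant. All psh1 and psh1 cac2 libraries were above all WT and cac2 libraries, and both psh1 cac2 libraries were above both psh1 libraries. The means ± SD (n = 2) were 5.45 ± 0.140 in WT and 5.06 ± 0.0030 in cac2, against 9.27 ± 1.76 in psh1 and 13.1 ± 1.89 in psh1 cac2. The mean was 1.70 times the WT mean in psh1, 2.40 times in psh1 cac2 and 0.928 times in cac2. On the log2(RPKM + 1) scale, which understates changes of low genes, the differences from WT were 0.66 in psh1, 1.12 in psh1 cac2 and -0.09 in cac2, each with a standard error of 0.131. Of all features tested, 99.9% had a lower value in psh1 cac2 against WT than HUG1.

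The coding sequence of HUG1 is 207 bases long, so these levels rested on few reads. WT had 36 and 38 reads, cac2 32 and 34, psh1 57 and 78, and psh1 cac2 99 and 82. The exact Poisson 95% intervals, which cover counting error alone, were 3.89 to 7.69 and 3.79 to 7.35 RPKM in WT, 6.08 to 10.4 and 8.31 to 13.1 in psh1, and 11.7 to 17.6 and 9.35 to 14.6 in psh1 cac2. The intervals of the psh1 cac2 libraries did not reach those of WT, whereas the interval of the lower psh1 library overlapped them. Between psh1 and psh1 cac2 the intervals also overlapped, except for those of replicate 1 of each genotype. The difference between psh1 cac2 and psh1 was 0.46, and it was 0.29 without psh1 replicate 1.

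SML1 (YML058W), whose product holds ribonucleotide reductase inactive in undamaged cells, lies next to HUG1. HUG1 occupies 158760 to 158966 on chromosome XIII and SML1 159383 to 159697, both on the plus strand, with 416 bp between them. SML1 had 142.9 and 149.3 RPKM in WT, 162.9 and 167.1 in psh1, 133.7 and 162.8 in cac2, and 186.1 and 177.4 in the psh1 cac2 mutant. The order of the genotypes was that of HUG1 for psh1 and psh1 cac2, with no overlap with WT in either, while the cac2 libraries lay on both sides of WT. The ratios to WT were smaller than those of HUG1, at 1.13 in psh1, 1.24 in psh1 cac2 and 1.01 in cac2. NTE1, the gene on the other side of HUG1, encodes a phospholipase and did not pass the test in any mutant against WT, with log2 changes of 0.11 in cac2 and 0.03 in psh1, and -0.14 in psh1 cac2 (limma, adjusted p = 0.435, 0.838 and 0.286).

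**Figure D2:**
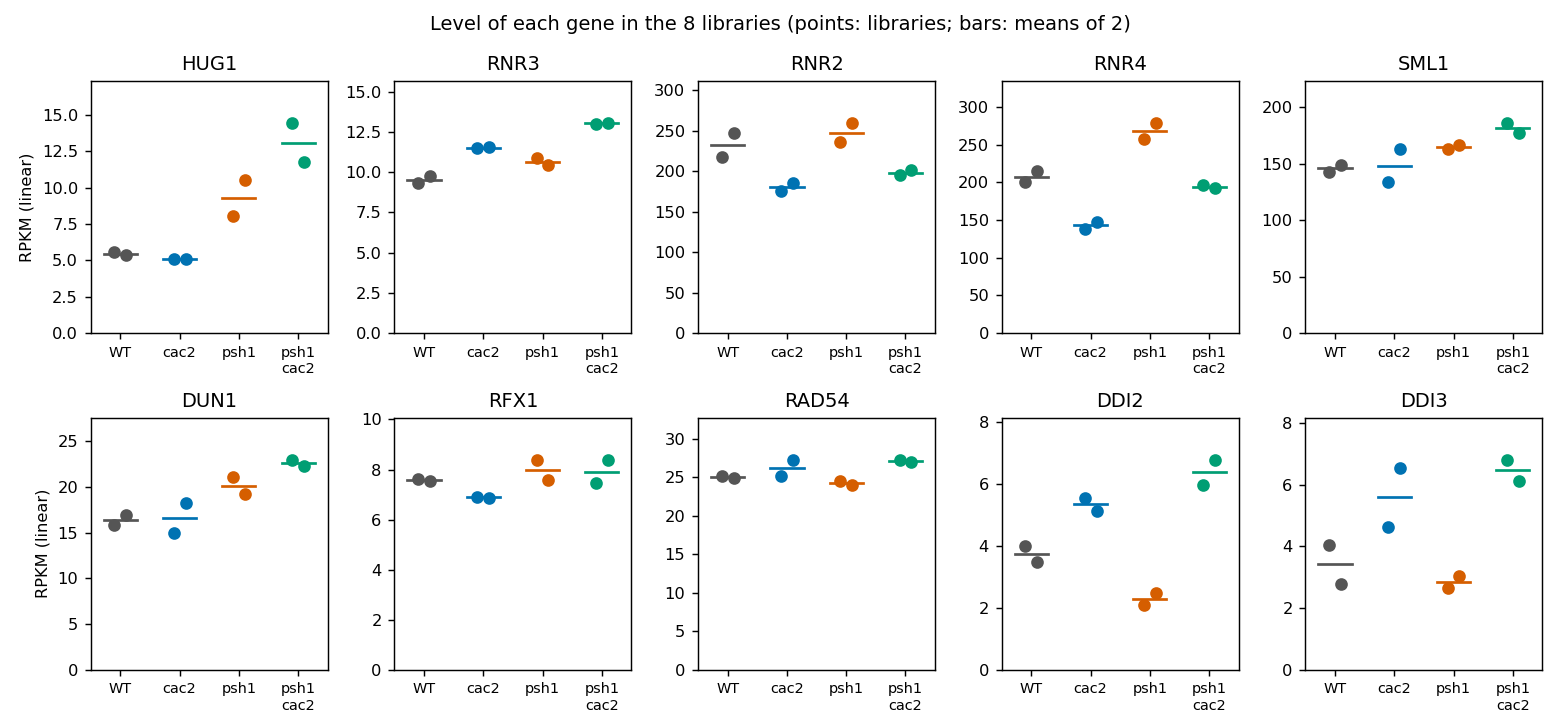
Level of each of the 10 genes in RPKM (vertical axes, linear, from 0) in the WT, cac2, psh1 and psh1 cac2 libraries. Points are libraries and bars are means of 2. HUG1 ran from 5.06 to 14.4 with its highest libraries in psh1 cac2, RNR4 was lowest in cac2 and highest in psh1, and DDI2 was lowest in psh1.

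The subunits of ribonucleotide reductase did not follow HUG1 as a group. RNR3 (YIL066C), the damage-inducible large subunit, had 9.32 and 9.77 RPKM in WT, 10.9 and 10.4 in psh1, 11.5 and 11.5 in cac2, and 13.0 and 13.1 in the psh1 cac2 mutant. All mutant libraries were above WT and the psh1 cac2 libraries were the highest of all. Its ratios to WT were 1.21 in cac2 and 1.12 in psh1, and 1.37 in psh1 cac2, from 762 to 1149 reads per library. RNR3 was thus higher in cac2 as well, by a log2 change of 0.25 that was not called and fell to 0.12 under other processing. The HUG1 change in cac2 was -0.09, within its standard error of 0.131.

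The small-subunit genes RNR4 and RNR2 were lower in cac2, where RNR3 was higher. RNR4 (YGR180C) had 199.9 and 215.7 RPKM in WT, 257.5 and 278.8 in psh1, 138.5 and 147.5 in cac2, and 196.9 and 191.9 in the psh1 cac2 mutant. It was lower than WT in cac2, at a ratio of 0.688 (log2 -0.54, SE 0.0759), and higher in psh1, at 1.29 (log2 0.37). In psh1 cac2 both libraries lay just below WT, at a ratio of 0.936. RNR2 (YJL026W), which forms the small subunit with RNR4, had 217.9 and 246.6 RPKM in WT, 235.7 and 259.3 in psh1, 175.8 and 184.9 in cac2, and 194.8 and 200.8 in the psh1 cac2 mutant. Its cac2 and psh1 cac2 libraries were below all WT libraries, at ratios of 0.777 and 0.852, while psh1 and WT overlapped at a ratio of 1.07.

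DUN1 (YDL101C), the kinase that relays the signal from Rad53, was close to HUG1 in its order of genotypes. It had 15.8 and 16.9 RPKM in WT, 21.1 and 19.2 in psh1, 15.0 and 18.2 in cac2, and 23.0 and 22.3 in the psh1 cac2 mutant. Both genotypes with the psh1 mutation were above WT without overlap, at ratios of 1.23 and 1.38, and cac2 overlapped WT at 1.01. RFX1 (YLR176C), the repressor, varied little, with 7.64 and 7.54 RPKM in WT, 8.39 and 7.58 in psh1, 6.89 and 6.88 in cac2, and 7.45 and 8.39 in the psh1 cac2 mutant. It was lower than WT in cac2, at a ratio of 0.907, and overlapped WT in the other mutants. RAD54 (YGL163C), a motor protein of homologous recombination, had 25.2 and 24.9 RPKM in WT, 24.5 and 24.0 in psh1, 25.1 and 27.2 in cac2, and 27.2 and 27.0 in the psh1 cac2 mutant. Its libraries were within a narrow range, and the ratios to WT ran from 0.969 in psh1 to 1.08 in psh1 cac2.

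DDI2 and DDI3 encode a cyanamide hydratase and are induced by the alkylating agent methyl methanesulfonate. They are near-identical copies, so the reads of one cannot be assigned with certainty. RefSeq uses the symbols the other way round from this report: here DDI2 is YFL061W and DDI3 is YNL335W. Each coding sequence has 678 bases, which differ at a single base, T378C, with the DDI2 base first and positions counted from the start codon. The copies are also identical over 19 bases before and 433 bases after the coding sequence, a stretch of 1130 bases. The lines below show the only stretch that tells them apart, with the differing base in capitals.
DDI2, chrVI:9902-9942, plus strand, coding positions 358 to 398: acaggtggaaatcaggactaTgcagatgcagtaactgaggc
DDI3, chrXIV:11809-11849, plus strand, coding positions 358 to 398: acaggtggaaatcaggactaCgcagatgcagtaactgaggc
Both copies lie near chromosome ends, 9544 bp from the end of chromosome VI for DDI2 and 11451 bp from the end of chromosome XIV for DDI3.

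The DDI copies were high in the genotypes with the cac2 mutation, and DDI2 was low in psh1. DDI2 had 4.00 and 3.48 RPKM in WT, 2.11 and 2.47 in psh1, 5.55 and 5.13 in cac2, and 5.96 and 6.78 in the psh1 cac2 mutant, from 49 to 155 reads. Every genotype was separated from WT, with ratios of 1.43 in cac2 and 0.611 in psh1, and 1.70 in psh1 cac2, and the psh1 cac2 mean was 2.79 times that of psh1. DDI3 had 4.05 and 2.80 RPKM in WT, 2.67 and 3.05 in psh1, 4.64 and 6.54 in cac2, and 6.81 and 6.13 in the psh1 cac2 mutant. It was above WT in cac2 and psh1 cac2, at ratios of 1.63 and 1.89, and overlapped WT in psh1 at 0.834. Summed over both copies, which removes the uncertain split between them, the reads were 171 and 146 in WT, 111 and 134 in psh1, 211 and 257 in cac2, and 287 and 295 in the psh1 cac2 mutant. The sums did not overlap between WT and any mutant.

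**Figure D3:**
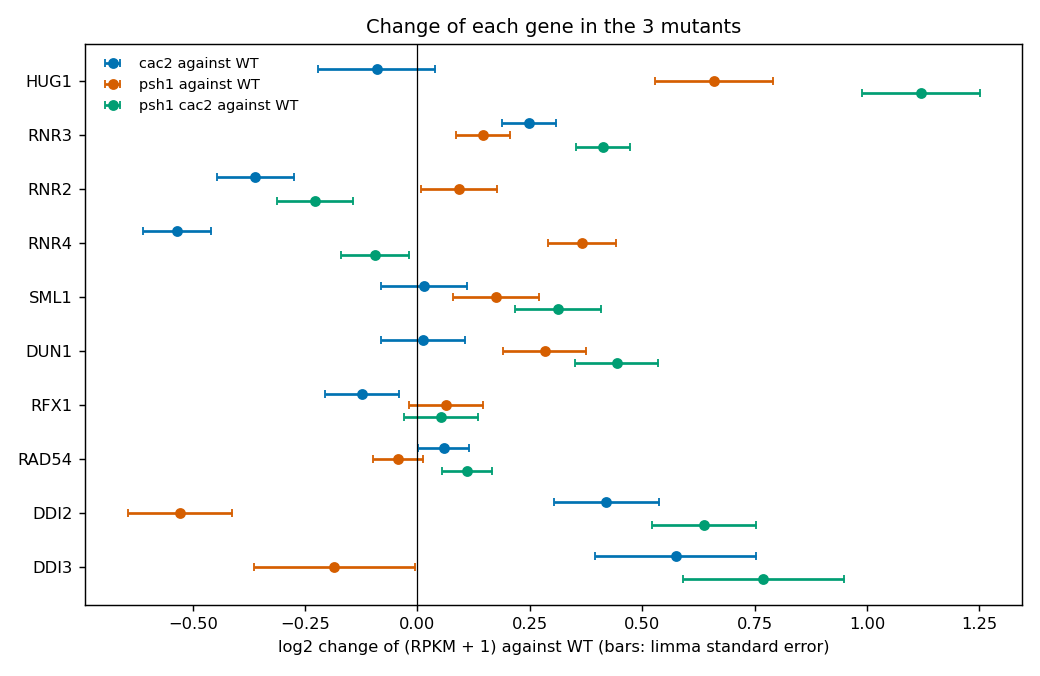
Change of each gene against WT as a difference of log2(RPKM + 1) (horizontal axis) in cac2, psh1 and psh1 cac2, with the limma standard error as bars. HUG1 reached 1.12 in psh1 cac2, RNR4 took opposite signs in cac2 (-0.54) and psh1 (0.37), and so did DDI2 (0.42 and -0.53).

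Counted over the 10 genes, the comparisons differed in how many passed an adjusted p of 0.05 in the limma fit to all features. Against WT, cac2 had RNR4 as its 1 lower gene and no higher gene, where 1.51% of all features were called lower and 2.75% higher (4.26% in all); with scaling to total reads 164 features were higher and 1529 lower. In psh1, HUG1 and RNR4 were called higher and DDI2 lower, against 7.65% and 6.9% of features (14.5% in all). In psh1 cac2, HUG1, RNR3, DUN1, DDI2 and DDI3 were called higher and none lower, against 3.86% and 2.18% (6.05% in all). The median log2 change of the 10 genes was 0.01 in cac2 and 0.12 in psh1, and 0.36 in psh1 cac2, beside medians of all features of -0.00, -0.00 and -0.01. Since the genes were chosen on these libraries, nothing is read from these counts. Groups without overlap were common in the table. In cac2 against WT, 3 of the 10 genes were higher and 4 lower without overlap, beside 25.5% and 26.5% of features (52% in all). In psh1, 5 were higher and 2 lower, beside 30% and 27.9% (57.9% in all). In psh1 cac2, 7 were higher and 2 lower, beside 27.7% and 27.4% (55.2% in all).

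Set against the cac2 mutant, the psh1 cac2 mutant had higher values for all 10 genes, where 3100 of the 6366 features had a change above 0. Libraries were apart for 8 of the 10, beside 27.9% of features apart and higher, 29% apart and lower and 56.9% in all. Nothing is read from these counts either. HUG1 was 2.59 times and RNR4 1.36 times as high, and these were the genes called higher, beside 0.393% of features, with 0.503% called lower and 0.895% in all. RAD54 and DDI3 overlapped. Against psh1, the psh1 cac2 mutant had higher HUG1 (1.41 times), DDI2, DDI3 (2.27 times) and RNR3 (1.22 times), and lower RNR4 (0.725 times) and RNR2 (0.799 times). These were the 4 genes called higher and the 2 called lower, beside 11.2% and 12.2% of features (23.5% in all). Without overlap, 7 of the 10 genes were higher and 2 lower, beside 30.5% and 35.7% of features (66.2% in all). The comparisons share libraries, so their values are not independent of each other.

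The psh1 cac2 values were also set against the sum of the single-mutant log2 changes. HUG1 had an observed change of 1.12 against a sum of 0.57, a difference of 0.55 with a standard error of 0.185. DDI2 had 0.64 against -0.11, a difference of 0.74 (SE 0.164), and DDI3 0.77 against 0.39, a difference of 0.38 (SE 0.253). For RNR3 the sum and the observed change were 0.39 and 0.41, for RNR2 -0.27 and -0.23, and for RNR4 -0.17 and -0.09. These subunit genes lay within 1 standard error of the sum, as did SML1 (difference 0.12, SE 0.136) and RFX1 (0.11, SE 0.117). DUN1 (0.15, SE 0.131) and RAD54 (0.10, SE 0.0794) lay between 1 and 2 standard errors above it. All 10 differences were above 0, as were those of 3057 of the 6366 features, with a median of 0.12 beside -0.01 for all features. The genes were chosen on these libraries and the DDI copies cannot be counted apart with certainty, so nothing is read from this count. None of the 10 passed the interaction test over all features, in which 0.0157% of features were called, and 2 had an unadjusted p under 0.05, as did 866 of the 6366 features. Over all features 1 passed, and 0 passed with voom weights on recovered reads. Quantile normalization gave 5, and a fit with a term for replicate number gave 130, so these outcomes depend on the fit.

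**Figure D4:**
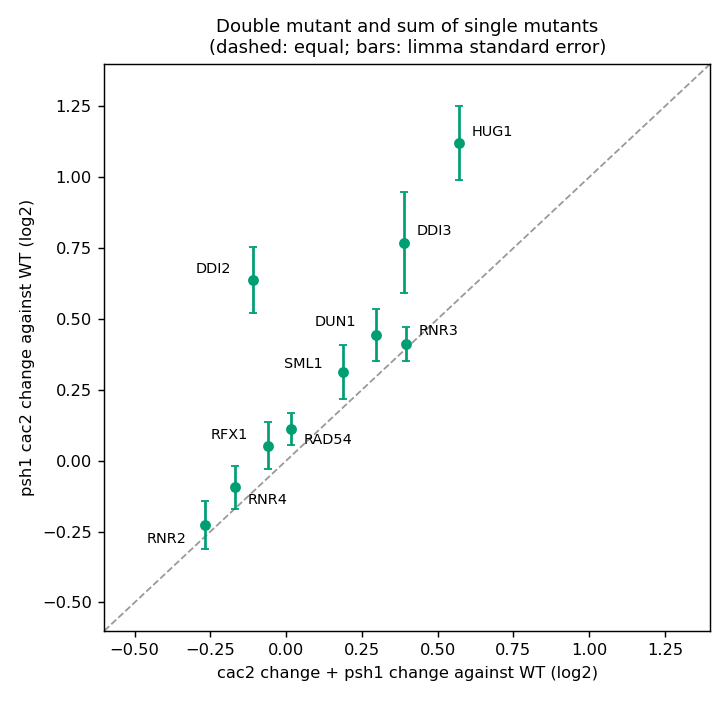
Observed log2 change in psh1 cac2 against WT (vertical axis, bars are limma standard errors) plotted against the sum of the changes in cac2 and psh1 (horizontal axis) for each gene, with the dashed line marking equality. HUG1 (1.12 against 0.57) and DDI2 (0.64 against -0.11) lie farthest above the line, and RNR2, RNR3 and RNR4 lie close to it.

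Across the 8 libraries, the log2 level of HUG1 was most like that of DUN1 (Pearson r = 0.873) and SML1 (r = 0.859) among the other 9 genes. It was less like RNR3 (0.610), RFX1 (0.510) and RNR4 (0.465), and least like RAD54 (0.263), DDI3 (0.261), RNR2 (0.143) and DDI2 (0.117). Over all features with a symbol outside the 10 genes, the likest were IPL1 (r = 0.966), MGP12 (0.965), AIM7 (0.961), SPC3 (0.959) and YFH1 (0.953). IPL1, the Aurora kinase of chromosome segregation, had 5.99 and 6.02 RPKM in WT, 6.79 and 7.05 in psh1, 5.46 and 6.11 in cac2, and 8.01 and 7.36 in the psh1 cac2 mutant. These correlations come from 8 libraries that fall into 4 genotypes and share a scaling per library, and the likest were picked from a large number of features.

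Genes outside the 10 with a match to the X-box palindrome were examined in the same fit. Such a match does not show that Rfx1 binds, and how many arise from base composition alone was not computed. The values of these genes therefore say nothing about Rfx1 targets. Of 121 further genes with a match of at most 3 mismatches, 117 were tested. Against WT, 1 of them fell in cac2, 9 rose and 6 fell in psh1, and 1 rose and 2 fell in psh1 cac2. Over all features 1.51% fell in cac2, 7.65% rose and 6.9% fell in psh1, and 3.86% rose and 2.18% fell in psh1 cac2. The median log2 changes of the 117 genes were -0.00, 0.01 and -0.02. Among them were RAD53, the kinase above Dun1, the nucleotide excision repair gene RAD16, and the stress gene DDR2.

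A further 93 genes of the checkpoint, of deoxynucleotide supply and of DNA repair were examined as lists of pathway genes, and all were tested. Over all features 1.51% fell and 2.75% rose in cac2 against WT. Of the 93 genes, 2 fell. These were RNR1, the constitutive large subunit of ribonucleotide reductase, at a log2 change of -0.52 (limma, adjusted p = 0.0111), and POL30, the sliding clamp of replication, at -0.48 (adjusted p = 0.0133). RNR1 had 64.9 and 56.2 RPKM in WT, 89.0 and 86.2 in psh1, 42.9 and 40.5 in cac2, and 53.9 and 49.5 in the psh1 cac2 mutant. It was low in cac2 and high in psh1, as RNR4 was. The median of the 93 genes was 0.00. The count was 0 without WT replicate 1 and 1 without either cac2 library. With scaling to total reads, which shifts the median of all features by -0.14, it was 22, all of them lower.

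In psh1, 8 of the 93 genes rose and 10 fell, with a median of -0.09. Over all features 7.65% rose and 6.9% fell. The list of deoxynucleotide supply had 3 of 10 genes higher and none lower, namely RNR1 (0.53, limma adjusted p = 0.0104), the thymidylate synthase CDC21 (0.47, adjusted p = 0.0122) and the dUTPase DUT1 (0.27, adjusted p = 0.0448). POL30 (0.50), the ligase gene CDC9 (0.25) and the Rfx1 corepressor gene CYC8 (0.27) were among the others that rose, with adjusted p of 0.0104, 0.0312 and 0.0209. The genes that fell came from several repair lists: the end-joining genes LIF1 (-0.33) and DNL4 (-0.26), the nucleotide excision repair genes SSL2 (-0.27), RAD2 (-0.23) and RAD16 (-0.19), and the translesion polymerase gene REV1 (-0.33). MAG1, a DNA glycosylase gene induced by alkylation damage, fell by 0.37, and RAD50, of the complex that processes breaks, by 0.27. Among checkpoint genes MEC1 (-0.22) and CHK1 (-0.22) fell, with adjusted p of 0.0454 and 0.0467. For the other genes that fell the adjusted p ran from 0.0175 to 0.0487. With scaling to total reads 11 rose and 5 fell, and with quantile normalization 7 rose and 5 fell. The psh1 count moved with single libraries: it dropped to 2 or 5 when the first or second WT library was left out, to 3 or 0 for the first or second psh1 library, and to 11 for either psh1 cac2 library.

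In psh1 cac2 against WT, 1 of the 93 genes rose and 2 fell, with a median of 0.02. Over all features 3.86% rose and 2.18% fell. DIN7, a mitochondrial nuclease gene induced by DNA damage, had 5.55 and 5.73 RPKM in WT, 6.92 and 6.32 in psh1, 6.30 and 7.02 in cac2, and 7.66 and 7.43 in the psh1 cac2 mutant, a log2 change of 0.36 (limma, adjusted p = 0.0463). RAD16 fell by 0.32 (adjusted p = 0.0135) and the translesion polymerase gene RAD30 by 0.30 (adjusted p = 0.0164). The count was 0 without either WT library and without either psh1 cac2 library, and with scaling to total reads it was 14, all lower. With quantile normalization DIN7 did not pass and 2 genes fell. The list of damage-inducible transcripts, which leaves out the 10 genes, had 1 of 14 higher and 1 lower, with a median of 0.03. The checkpoint list of 14 genes had a median of 0.02.

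Between psh1 cac2 and cac2, POL30 was the 1 gene of the 93 to pass (0.67, limma adjusted p = 0.0276), and it did not pass without either cac2 library or without either psh1 cac2 library. Over all features 0.393% were called higher and 0.503% lower between psh1 cac2 and cac2. Between psh1 cac2 and psh1, 9 of the 93 genes rose and 7 fell, beside 11.2% and 12.2% of all features. RNR1 fell by 0.75 (adjusted p = 0.000869), CYC8 by 0.43 (adjusted p = 0.00214), TUP1, its partner in the corepressor, by 0.35 (adjusted p = 0.00979) and CDC21 by 0.39 (adjusted p = 0.0146). WTM1, which holds the small subunit in the nucleus, fell by 0.49 (adjusted p = 0.0332), and POL30 by 0.31 and CDC9 by 0.21 (adjusted p = 0.0273 and 0.0387). Of the 17 genes in the list of homologous recombination 4 rose, beside 11.2% of all features: MUS81 (0.28), XRS2 (0.30), RAD59 (0.50) and DNA2 (0.21). LIF1 (0.39), MAG1 (0.46), CHK1 (0.26), REV7 (0.34) and REV1 (0.27) rose as well, and the adjusted p of the 9 genes ran from 0.00693 to 0.0472. The count of 16 dropped to 6 or 4 when the first or second psh1 library was left out, and to 5 or 4 for the first or second psh1 cac2 library; with scaling to total reads 3 rose and 25 fell. In the interaction test 0 of the 93 genes passed in limma and 0 with voom weights on recovered reads, and 8 had an unadjusted p under 0.05, beside 866 of all 6366 features.

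**Figure D5:**
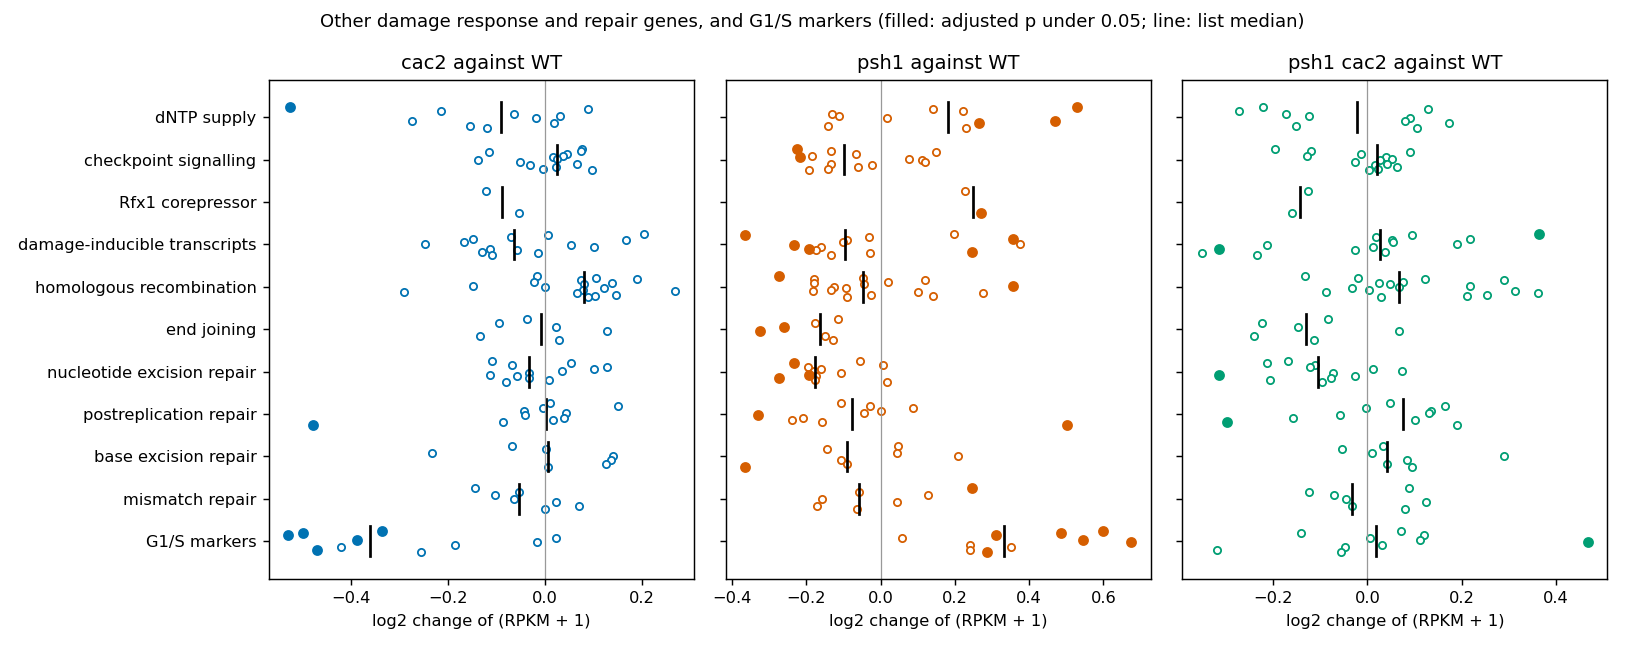
Log2 change against WT (horizontal axes) of each gene in the lists of damage response and repair genes and in the list of G1/S markers, for the 3 mutants. Points are genes, filled where the adjusted p was under 0.05, and lines are list medians. The G1/S markers had medians of -0.36 in cac2 and 0.33 in psh1, and 0.02 in psh1 cac2.

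Some genes of deoxynucleotide supply are transcribed periodically, so 10 markers of the G1/S transition were read beside the list, such as the cyclin genes CLN1, CLN2, CLB5 and CLB6. None of these markers is among the 10 genes or the 93. Of the 10 markers 5 fell in cac2, beside 1.51% of all features, among them PCL1 by 0.53 (limma, adjusted p = 0.00411) and CLN2 by 0.50 (adjusted p = 0.0373). In psh1 6 rose, beside 7.65% of all features, among them CLN1 by 0.60 (limma, adjusted p = 0.00546) and CLN2 by 0.48 (adjusted p = 0.0213). In psh1 cac2 GIC1 rose by 0.47 (limma, adjusted p = 0.0185), where 3.86% of all features rose. Their summed level was 275.1 to 282.4 RPKM in WT, 213.4 to 214.4 in cac2 and 351.0 to 360.9 in psh1, and 258.6 to 275.0 in psh1 cac2. The order of these sums, cac2 lowest and psh1 highest, is that of RNR1, RNR2 and RNR4, and it is not that of HUG1, RNR3 or the DDI copies. The part of cell cycle distribution in these levels was not tested. The summed levels of 10 general stress markers overlapped between WT and psh1, and between WT and psh1 cac2, but were lower than WT in cac2, at 5627 to 6001 against 6268 to 7356 RPKM. Of 6 genes specific to a cells, BAR1 was listed at 0 in all libraries, and the sum of the list was 2273 to 2437 RPKM in WT and 1502 to 2042 in the mutants.

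The chromosome neighbourhood of the DDI copies, examined once the values were known, is itself duplicated. Beyond DDI2 lie SNO3, SNZ3 and THI5, and beyond DDI3 lie SNO2, SNZ2 and THI12, genes of vitamin B6 and thiamine metabolism whose family members also resemble each other in sequence. THI5 had 12.4 and 11.1 RPKM in WT, 9.46 and 9.98 in psh1, 14.0 and 15.3 in cac2, and 16.9 and 17.7 in the psh1 cac2 mutant. This is the order of genotypes seen for the DDI copies. THI5 rose in psh1 cac2 by 0.53 against WT (limma, adjusted p = 0.00642) and by 0.77 against psh1 (adjusted p = 0.000401). THI12, with 14.1 and 11.1 RPKM in WT and 19.4 and 18.7 in psh1 cac2, rose by 0.57 (adjusted p = 0.0171) and 0.86 (adjusted p = 0.00125). SNO3 and SNO2 rose against psh1 by 0.30 and 0.21 (adjusted p = 0.0226 and 0.0267). SNZ3 and SNZ2, which lie between them and the THI genes, did not follow the DDI copies. SNZ3 fell in cac2 against WT by 0.30 (adjusted p = 0.0341), and SNZ2 had -0.28 (adjusted p = 0.0688). Between psh1 cac2 and psh1 they had -0.10 and 0.00 (adjusted p = 0.238 and 0.995). The COS genes on the other side, COS4 and COS1, did not pass in any comparison.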

How the data were processed

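RNA depleted of ribosomal RNA from 1000 ng was made into stranded libraries, per the labels' protocols. The authors deposited RPKM for 7126 features. Build sacCer3 and the tools TopHat2 2.0.13, bcl2fastq 2.18 and edgeR 3.14.0 stand in the submitters' processing notes, with no role. How reads were counted, and with which strand setting, is not given in the sources used, so overlapping or antisense features may share reads. Reads were recovered from RPKM and RefSeq R64 lengths, and 99.808% of values were whole within 0.01. The library size divided by was 1.00 to 1.16 times this total, and this factor differed by genotype. Lowest were the cac2 libraries (1.005, 1.013), followed by psh1 cac2 (1.048, 1.055), WT (1.112, 1.122) and psh1 (1.147, 1.159). Small changes between genotypes therefore depend on the total chosen. Total reads here means the recovered reads in the 6048 of 7126 features with a known length, and reads in the other features are left out. Scaling to total reads put the median log2 change of all features against WT at -0.14 (cac2), 0.04 (psh1) or -0.09 (psh1 cac2). Libraries of a genotype differed beyond sampling noise (chi-square per degree of freedom 20.0 to 29.2), so each counted as 1 replicate. The cultures were grown in duplicate, and p-values measure the spread between these cultures.

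Log2(RPKM + 1) of the 6366 features whose mean RPKM reached 1 was fitted with limma 3.58.1 (R 4.3.3, intensity trend) over the 8 libraries, with no term but genotype. This left 4 residual and 3.85 prior degrees of freedom. P-values were two-sided and Benjamini-Hochberg adjusted over features within each of 6 comparisons, at 0.05. The 10 genes and the gene lists were chosen with earlier results of these data known. Named are all 10 genes, up to 4 genes per list and comparison past the threshold by p, the neighbours of HUG1, and the 5 features most correlated with it. Some genes that the rule names are not reported here. THI5, THI12, the SNO and COS genes, and genes with an X-box match were named after their values were seen. Alternatives were other pseudocounts, filters and scalings, a replicate block, each library left out, and voom on recovered reads, chosen after seeing the data.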

Additional observations from a re-analysis of the deposited data

Results flagged for a closer look

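HUG1 had a log2 change of -0.09 (SE 0.131) in cac2 against WT, which is within its standard error and was not called, and of 0.46 in psh1 cac2 against psh1. It is listed because both pairs of groups had their libraries apart, in opposite directions. The changes differed by 0.55, which did not pass the interaction test over all features.

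DDI2 was lower in psh1 than in WT (-0.53) and higher in psh1 cac2 than in cac2 (0.22), again with all libraries apart. The changes differed by 0.74 and did not pass the interaction test. The near-identical copy DDI3 showed -0.19 and 0.19, with overlapping libraries.

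CYC8, which encodes a corepressor that Rfx1 recruits, was higher in psh1 than in WT (0.27) and lower in psh1 cac2 than in cac2 (-0.11). The changes differed by -0.38, with an adjusted p of 0.154 for the interaction in limma. With 2 libraries per group, libraries apart in opposite ways arise readily, and no explanation was weighed.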

How the results depend on the processing

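Of 950 recomputed values for the 60 changes of the 10 genes, 837 moved by less than 1 SD between replicates and 113 by more. Many of the 837 could not move. A replicate block, no filter, and leaving out a library of a genotype not compared all keep the fitted change. With 2 libraries per genotype, leaving out 1 can shift a mean only within the spread of its pair. The count of 837 therefore does not show that the values depend little on the processing. In 14 changes, none of them called, 24 values had the other sign; the largest of these changes were DDI3 in psh1 against WT (-0.19, up to 0.02) and in psh1 cac2 against cac2 (0.19, down to -0.02). HUG1 ran from 0.44 to 0.84 in psh1 and from 0.79 to 1.26 in psh1 cac2 against WT, and from -0.21 to -0.06 in cac2. With a pseudocount of 5, DDI2 was -0.26 in psh1 against WT and 0.64 in psh1 cac2 against psh1. With a pseudocount of 1 these were -0.53 and 1.17.

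Counts of the 93 pathway genes called also depended on the processing, and the cause was not tested. Scaling to total reads gave 22 in cac2, 14 in psh1 cac2 and 28 in psh1 cac2 against psh1. Without a filter, psh1 gave 11 and psh1 cac2 against cac2 gave 0. Fitting only the genotypes compared gave 7 in psh1 and 0 in psh1 cac2. Leaving out 1 library gave 0 to 2 in cac2, 0 to 13 in psh1, 0 to 3 in psh1 cac2, 0 to 1 against cac2, 4 to 15 against psh1 and 0 to 0 for the interaction. Over all features, the counts without 1 library were 153 to 254 in cac2 and 93 to 826 in psh1, and 13 to 373 in psh1 cac2, beside 271, 926 and 385 with every library. Scaling to total reads turned the balance over all features: 164 were higher and 1529 lower in cac2 against WT, and 181 and 582 in psh1 cac2, where the deposited scale gave 175 and 96, and 246 and 139. In psh1 it gave 769 and 348, against 487 and 439; against cac2 153 and 36, not 25 and 32; and against psh1 427 and 2198, not 716 and 777.

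Replicate numbers are shared between the genotypes but nothing in the labels ties them. Deviations of same-numbered libraries correlated at 0.04 to 0.44 over 6 pairs of genotypes, above 0 in all 6 and over 0.1 in 4. These values do not show that the numbers are unrelated. The main fit had no replicate term because the labels do not tie the numbers, and the calls depended on that choice. Among the pathway genes, the replicate block gave 10 calls in psh1 cac2, 8 against cac2 and 1 for the interaction, and 26 in psh1. Over all features it gave 821, 1625 and 984 for the mutants against WT, 520 and 2187 for psh1 cac2 against cac2 and psh1, and an interaction count of 130, beside 1 without it. Count tests with edgeR and DESeq2 were not run, because the values are RPKM; voom on recovered reads gave 3, 19, 4, 1, 19 and 0 calls. Depth limits HUG1 and the DDI copies most, at 32 to 155 reads per library.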
